A study of Mus musculus with 12 samples.

Results

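The regulators of the Schwann cell lineage followed here from birth to P21 in the mouse auditory nerve are 10 genes, the DNA-binding factors Egr2, Pou3f1, Pou3f2, Sox10, Sox2, Jun, Pax3 and Foxd3, and Nab1 and Nab2, the partners of the Egr proteins. The 10 genes were taken by name from the 18193 genes that the array annotation resolves to a single symbol, and each was represented by its probe set with the highest mean over the 12 arrays. RNA came from untreated CBA/CaJ mice of either sex, with 2 mice per age and the ages P0 (the day of birth), P3, P7, P10, P14 and P21 in days, and with no transgene or deletion in any group. Each array held the pooled tissue of both cochleas of 1 mouse, from which the bony shell, the lateral wall and most of the sensory epithelium had been dissected away, so that the modiolus, the core that carries the nerve, remained. It is a mixed tissue of Schwann cells, satellite glia, neurons, bone, blood vessels and, near the brainstem, central glia, and fewer cells of a type cannot be told apart from less RNA per cell. Values are log2 RMA values, a background-corrected and quantile-normalized brightness, and a level can be compared between ages for 1 gene but not between genes. Mbp, a myelin protein counted here among the Schwann cell markers, lay above 96.4% of all probe sets on every array.

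Schwann cells arise from the neural crest through precursor and immature stages and then wrap axons in myelin. Sox10 and Pax3 act from the crest onward, Foxd3 keeps crest cells undifferentiated, and Sox2 and Jun hold Schwann cells in the immature state and return after nerve injury. Pou3f1 (Oct6) and Pou3f2 (Brn2) drive the passage from the promyelinating to the myelinating stage, and Egr2 (Krox20), together with Sox10, switches on the myelin genes and needs the Nab proteins to do so.

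A gene was called higher or lower when the limma fit over all 12 arrays gave a Benjamini-Hochberg adjusted p under 0.05 and a fold over 1.5, and differences are given as log2 values with the standard error (SE) of the fit or as folds. By the F-test over the 6 ages, 6 of the 10 genes changed, namely Egr2, Pou3f1, Sox2, Foxd3, Nab1 and Nab2, against 38.3% of all probe sets. Pou3f2, Sox10, Jun and Pax3 were not called. From P0 to P10, Egr2 and Pou3f1 rose and Sox2 and Foxd3 fell, which is 2 of 10 higher beside a background of 9.24% and 2 of 10 lower beside 10.1%. The same genes were called in the same directions at P14, with backgrounds of 10.2% and 11.3%, and at P21, with 12.4% and 14.9%. At P3 only Egr2 and Pou3f1 were already higher than at P0 and none was lower, beside 0.981% and 2.8%. At P7 these 2 were again the only calls against P0, beside 5.44% and 5.68%, and without P7 replicate 2 there were 4, with Nab1 higher and Sox2 lower. All comparisons with P0 share its 2 arrays. Arrays of P0 and P10 did not overlap for 8 of the 10 genes, and this held for 65.1% of all probe sets. The median change of the 10 genes from P0 to P10 was 0.00, beside -0.01 for all probe sets.

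**Figure D1:**
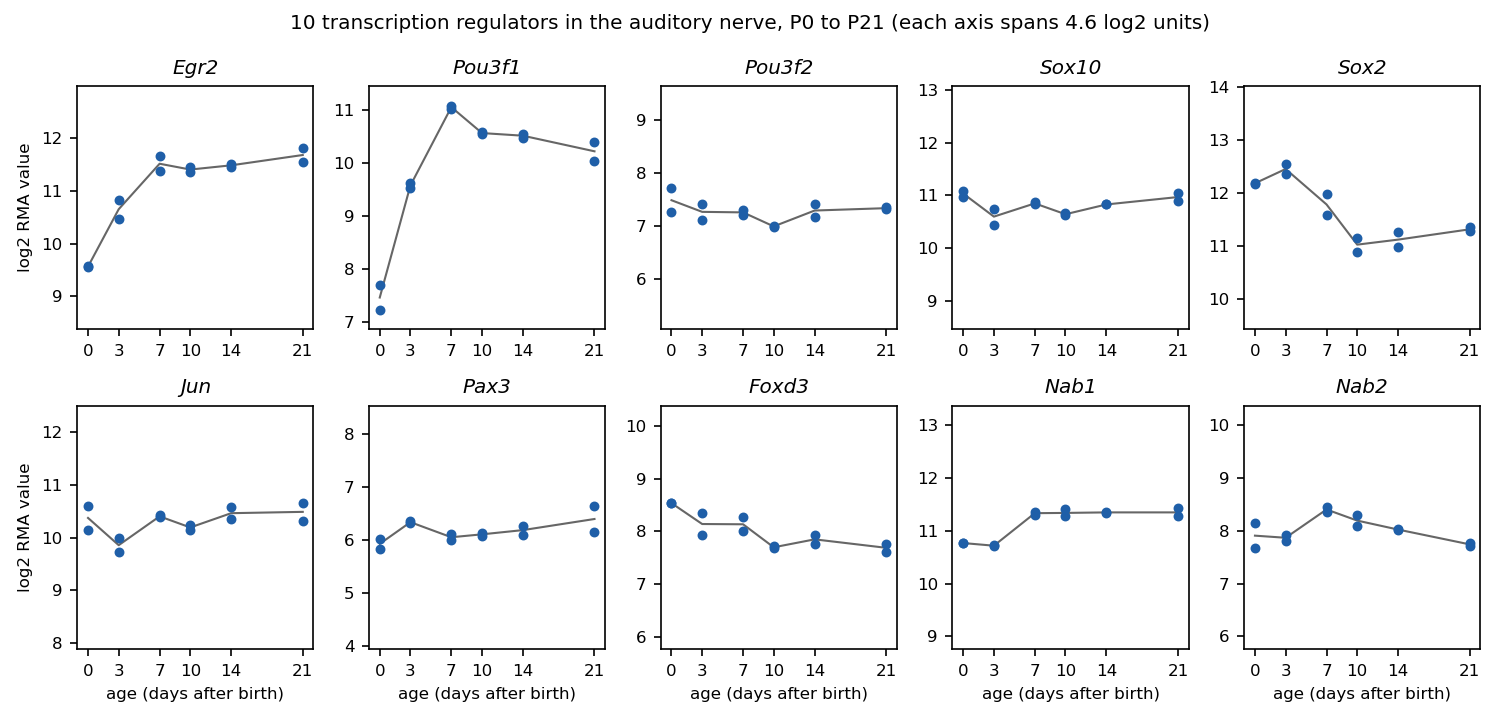
Log2 RMA value of each of the 10 genes (y axis) against age in days after birth (x axis), 1 point per mouse, with a line through the mean of the 2 mice of an age. The axes have different offsets but the same span, so slopes can be compared: Pou3f1 climbed by 3.60 from P0 to P7, Egr2 by 1.94, and Sox10, Jun, Pax3 and Pou3f2 stayed within 0.63 of their lowest mean.

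The 250 bases before the annotated start are shown for 4 of the genes that changed, Egr2 and Nab1, which rose, and Sox2 and Foxd3, which fell, so that the sequences next to these starts can be set side by side. They are from RefSeq on GRCm38.p6, which held 7 of the 10 genes, and are written 5′ to 3′ on the strand of the gene, with matches to the 10 motifs searched in capitals. Egr2 lies at chr10:67537619-67537868 on the + strand (window 3 of the 5 annotated, of which windows 4 and 5 overlap it), Nab1 at chr1:52500449-52500698 on the - strand, Sox2 at chr3:34649745-34649994 on the + strand and Foxd3 at chr4:99656049-99656298 on the + strand.
Egr2: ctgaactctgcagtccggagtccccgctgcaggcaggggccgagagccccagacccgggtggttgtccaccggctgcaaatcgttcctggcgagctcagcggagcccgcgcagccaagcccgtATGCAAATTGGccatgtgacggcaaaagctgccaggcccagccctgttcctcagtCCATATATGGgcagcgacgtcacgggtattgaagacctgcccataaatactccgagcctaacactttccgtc
Nab1: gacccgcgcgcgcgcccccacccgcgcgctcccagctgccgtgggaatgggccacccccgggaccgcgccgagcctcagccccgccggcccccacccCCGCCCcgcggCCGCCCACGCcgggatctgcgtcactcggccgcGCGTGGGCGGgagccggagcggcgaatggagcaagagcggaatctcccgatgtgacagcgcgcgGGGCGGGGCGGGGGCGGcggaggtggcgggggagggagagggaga
Sox2: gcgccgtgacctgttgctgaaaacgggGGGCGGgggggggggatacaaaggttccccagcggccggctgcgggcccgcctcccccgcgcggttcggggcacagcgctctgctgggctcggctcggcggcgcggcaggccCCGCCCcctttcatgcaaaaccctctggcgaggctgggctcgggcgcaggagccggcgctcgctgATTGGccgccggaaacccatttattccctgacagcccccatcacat
Foxd3: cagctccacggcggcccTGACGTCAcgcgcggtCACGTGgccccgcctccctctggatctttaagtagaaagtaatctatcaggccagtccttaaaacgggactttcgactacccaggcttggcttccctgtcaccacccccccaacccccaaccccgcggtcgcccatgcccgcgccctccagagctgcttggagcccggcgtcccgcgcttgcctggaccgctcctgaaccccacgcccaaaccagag
Each motif was searched on both strands of these windows and of 32851 windows of 250 bases in all. The Nab1 window held 3 matches to the EGR motif GCGNGGGCG, at -141 to -133, -109 to -101 and -38 to -30 from the start, and 6 to the GC box GGGCGG, some of which overlap the EGR matches. The window of Nab2, which is not shown, held 0 EGR matches and 1 GC box. At least 1 EGR match was found in 4.7% of all windows and a GC box in 32.7%. The Nab1 window had 80.8% G and C, against a median of 52.4% over all windows. The Egr2 window held the octamer ATGCAAAT at -127 to -120, found in 1.6% of windows, a CCAAT box overlapping it, and a CArG box at -72 to -63, found in 1.47%. It was chosen after the matches were seen, and windows 1 and 2 of Egr2 held neither the octamer nor a CCAAT box: window 1 had 4 GC boxes and an E box, and window 2 had 1 GC box and a CArG box. The Sox2 window held 2 GC boxes and a CCAAT box, the latter present in 33.8% of all windows. The Foxd3 window held a cAMP response element, TGACGTCA, at -233 to -226 (1.55% of windows) and an E box, CACGTG, at -217 to -212 (6.02%). Of the 4 windows none held the AP-1 motif TGANTCA (6.75% of windows), the SOX motif ACAAT (27.7%) or the TATA box TATAAA (12.4%). These matches describe letters and not binding.

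Egr2, the zinc finger factor that switches on the myelin genes, rose in the first week and then held its level. Its log2 values were 9.58 and 9.55 in the mice at P0, 10.47 and 10.83 at P3, 11.37 and 11.65 at P7, 11.45 and 11.35 at P10, 11.51 and 11.45 at P14, and 11.54 and 11.81 at P21. Both P0 mice lay lowest, both P3 mice next, and the 8 mice from P7 on were all above them, with P7 overlapping every later age. Against P0 the level was 2.12-fold higher at P3 (adjusted p = 0.00402, limma), 3.85-fold higher at P7, 3.57-fold higher at P10 (adjusted p = 2.05e-05) and 4.32-fold higher at P21 (adjusted p = 5.05e-06). The step from P3 to P7 was 1.82-fold (adjusted p = 0.00419), and none of the 3 later steps was called. The other Egr2 probe set gave 2.02-fold at P3 and 3.85-fold at both P7 and P21. With only the P0 and P3 arrays in the fit, the P3 call was lost at the same fold (adjusted p = 0.0545).

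Pou3f1, the POU factor of the promyelinating stage, had the largest change of the 10 genes. It read 7.23 and 7.69 at P0, 9.63 and 9.53 at P3, 11.03 and 11.09 at P7, 10.55 and 10.59 at P10, 10.48 and 10.56 at P14, and 10.04 and 10.41 at P21. The P7 mice were the highest and the P0 mice the lowest, with the P3 mice between P0 and all later ages. Relative to P0 it was 4.35-fold higher at P3 (adjusted p = 0.000334, limma), 12.1-fold higher at P7 (adjusted p = 1e-06), 8.63-fold higher at P10 and 6.80-fold higher at P21. From P3 to P7 it rose 2.79-fold (adjusted p = 0.000426). After P7 both mice of each age lay below both P7 mice, but the step from P7 to P10, -0.49 ± 0.16 (SE), was not called (adjusted p = 0.255). The second Pou3f1 probe set also peaked at P7, with 3.99-fold over P0, but changed less: 1.40-fold at P3, which was not called (adjusted p = 0.173), and 2.34-fold at P10.

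Pou3f2, the other POU factor of this stage, was dim and did not show the rise of Pou3f1. The probe set used lay between percentiles 52.9 and 61.4 of the arrays, and another lay below the array median on 12 of 12 arrays. A change of so dim a gene could be missed. Its values were 7.71 and 7.26 at P0, 7.11 and 7.42 at P3, 7.21 and 7.30 at P7, 7.00 and 6.98 at P10, 7.17 and 7.41 at P14, and 7.32 and 7.35 at P21. Only the P10 mice lay clear of the P0 mice, below them. That difference was 1.41-fold (adjusted p = 0.0404, limma), under the fold limit, and it was called at -0.72 when P0 replicate 2 was left out. The change from P0 to P10 of Pou3f1 exceeded that of Pou3f2 by 3.61 on the log2 scale (95% interval 3.04 to 4.17, adjusted p = 9.2e-06 by the limma fit), and at P21 by 2.92. Such differences of change were tested for 5 gene pairs at 2 ages, 10 tests in all, each with its p adjusted over all probe sets in the fit of the differences.

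The Nab corepressors, which bind Egr1 and Egr2 and are themselves targets of Egr factors, differed in their change from P0 to P21 on the probe sets used. A difference between them from P7 on was not tested. Nab1 read 10.77 and 10.76 at P0, 10.73 and 10.70 at P3, 11.36 and 11.30 at P7, 11.27 and 11.40 at P10, 11.33 and 11.36 at P14, and 11.42 and 11.27 at P21. The 4 mice up to P3 and the 8 mice from P7 on did not overlap, and within each set the values lay within 0.15. The step from P3 to P7 was called at 1.53-fold (adjusted p = 0.00273, limma). From P7 to P21 the level stood 1.48-fold to 1.49-fold over P0, with adjusted p of 0.00338 at P7 and 0.000911 at P21, just under the fold limit and so not called. A second Nab1 probe set rose 1.87-fold from P0 to P7 and was back to 1.12-fold at P21. The third, which lay below the array median on 12 of 12 arrays, gave 1.04-fold at P7, which was not called. The step from P3 to P7 lost its call on the mean of the 3 probe sets (0.51, adjusted p = 0.015) and when the arrays were shifted to a common median (0.58).

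Nab2 read 8.14 and 7.67 at P0, 7.92 and 7.81 at P3, 8.45 and 8.35 at P7, 8.09 and 8.29 at P10, 8.01 and 8.03 at P14, and 7.71 and 7.77 at P21. The highest values were those of the P7 mice, and the P0 mice lay 0.47 apart, the lower of them being the lowest of all 12. Over the 6 ages Nab2 was called by the F-test (adjusted p = 0.0292), with a mean 1.58-fold higher at P7 than at P21, while its 1.41-fold rise from P0 to P7 stayed under the fold limit (adjusted p = 0.0445, limma). Without P0 replicate 1, the higher P0 mouse, the rise from P0 to P7 was called. From P0 to P21 the change of Nab1 exceeded that of Nab2 by 0.745 (adjusted p = 0.0021, limma), and from P0 to P10 by 0.285 (95% interval -0.03 to 0.60, adjusted p = 0.176), which was not called. Without P0 replicate 1 the P21 difference was 0.515 and no longer passed the fold limit.

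Sox10, the factor that glia of the crest carry from precursor to myelin stage, held nearly level. Its values were 11.09 and 10.98 at P0, 10.45 and 10.75 at P3, 10.83 and 10.87 at P7, 10.66 and 10.63 at P10, 10.83 and 10.83 at P14, and 11.05 and 10.89 at P21. The P0 mice were above every mouse of P3, P7, P10 and P14 and overlapped those of P21. The means of the 6 ages lay within 1.35-fold of each other (adjusted p of the F-test = 0.0502), and the largest difference from P0 with an adjusted p under 0.05 was 1.31-fold lower at P10 (adjusted p = 0.0297, limma), so no call was made. Without P3 replicate 2, which left the P3 mouse at 10.45, Sox10 was called lower at P3 than at P0. Of the other Sox10 probe sets, one ranged over 1.08-fold and the other over 1.22-fold, but both were dim. The former lay between percentiles 54.9 and 57.2 of the arrays, and the latter below the array median on 12 of 12 arrays.

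Sox2, an HMG box factor of immature glia and of the supporting cells of the organ of Corti, fell between P3 and P10. It read 12.19 and 12.17 at P0, 12.35 and 12.55 at P3, 11.58 and 11.98 at P7, 10.89 and 11.15 at P10, 10.97 and 11.26 at P14, and 11.35 and 11.27 at P21. All 4 mice up to P3 were above both P7 mice, which in turn were above all 6 later ones. Against P0 it was 2.23-fold lower at P10 (adjusted p = 0.000456, limma), 2.09-fold lower at P14 and 1.83-fold lower at P21 (adjusted p = 0.00151). The step from P3 to P7, 1.59-fold lower (adjusted p = 0.0185), lost its call without P3 replicate 2 (-0.57) and without P7 replicate 1 (-0.47). The step from P7 to P10, 1.69-fold lower, was not called (adjusted p = 0.0923) but was called without P7 replicate 1. From P0 to P10 the change of Sox10 exceeded that of Sox2 by 0.77 (95% interval 0.43 to 1.11, adjusted p = 0.00381), and that of Egr2 did so by 3.00 (adjusted p = 2.46e-06). At P21 these differences were 0.805 and 2.98. Of 12 supporting cell markers measured, 1 was higher and 4 were lower at P10 than at P0, and 7 were not called, where 9.24% of all probe sets were higher and 10.1% lower. Their summed level went from 15.5 and 15.6 at P0 to 15.1 and 15.4 at P10. Tecta, a protein of the tectorial membrane, was among the 4, at 13.05 and 13.21 at P0 and at 6.26 and 6.93 at P10. The 1 that rose was Gjb6, a gap junction protein, 3.22-fold (adjusted p = 0.000128). The part of these cells in the fall of Sox2 was not tested.

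Foxd3, the forkhead factor of the neural crest, also fell. Its values were 8.54 and 8.53 at P0, 7.94 and 8.34 at P3, 8.0 and 8.27 at P7, 7.68 and 7.72 at P10, 7.77 and 7.93 at P14, and 7.61 and 7.77 at P21. The P0 mice lay above all others, and the P10 and P21 mice below all of P0, P3 and P7. It was 1.78-fold lower at P10 than at P0 (adjusted p = 0.00192, limma), 1.61-fold lower at P14 and 1.80-fold lower at P21 (adjusted p = 0.00112). At P3 and P7 it was 1.31-fold and 1.32-fold lower, and neither was called (adjusted p = 0.156 and 0.0962).

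Pax3, a paired box factor of the crest, of early Schwann cells and of melanocytes, was dim: it lay below the array median on 12 of 12 arrays. It read 5.83 and 6.02 at P0, 6.36 and 6.31 at P3, 5.99 and 6.11 at P7, 6.08 and 6.13 at P10, 6.10 and 6.27 at P14, and 6.64 and 6.15 at P21. The highest mouse was P21 replicate 1, and that age also had the widest gap between its mice. The rise from P0 to P21, 1.39-fold (adjusted p = 0.0316, limma), was under the fold limit. Without P21 replicate 2 it was called at 0.715, and another Pax3 probe set was called at 1.77-fold (adjusted p = 0.0281). The melanocyte markers, of which 10 of 10 were measured, were uneven between mice: their summed level was 13.01 on P3 replicate 1 and 12.73 on P21 replicate 1 and lay between 10.53 and 11.88 on the other arrays. Dct, an enzyme of melanin synthesis, read 11.78 and 7.07 in the P21 mice. In the P3 mice Dct read 11.48 and 7.76, while Pax3 read 6.36 and 6.31. The other Pax3 probe set called at P21 read 6.23 and 6.30 in the mice of that age. The part of melanocytes in the Pax3 values was not tested.

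Jun, the AP-1 factor of immature and injured Schwann cells, was called in none of the 9 comparisons. Its values were 10.59 and 10.15 at P0, 9.72 and 9.99 at P3, 10.42 and 10.38 at P7, 10.14 and 10.24 at P10, 10.57 and 10.35 at P14, and 10.31 and 10.66 at P21. The P3 mice were the lowest, and the P0 mice overlapped those of P7, P10, P14 and P21. Jun was 1.43-fold lower at P3 than at P0 (adjusted p = 0.12, limma) and 1.46-fold higher at P7 than at P3 (adjusted p = 0.0594). The other Jun probe set was lowest at P3 and P10 and highest at P21, and its F-test passed (adjusted p = 0.00471, range 1.64-fold). The change from P0 to P10 of Egr2 exceeded that of Jun by 2.015 (95% interval 1.67 to 2.36, adjusted p = 1.65e-05), and at P21 by 1.995.

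**Figure D2:**
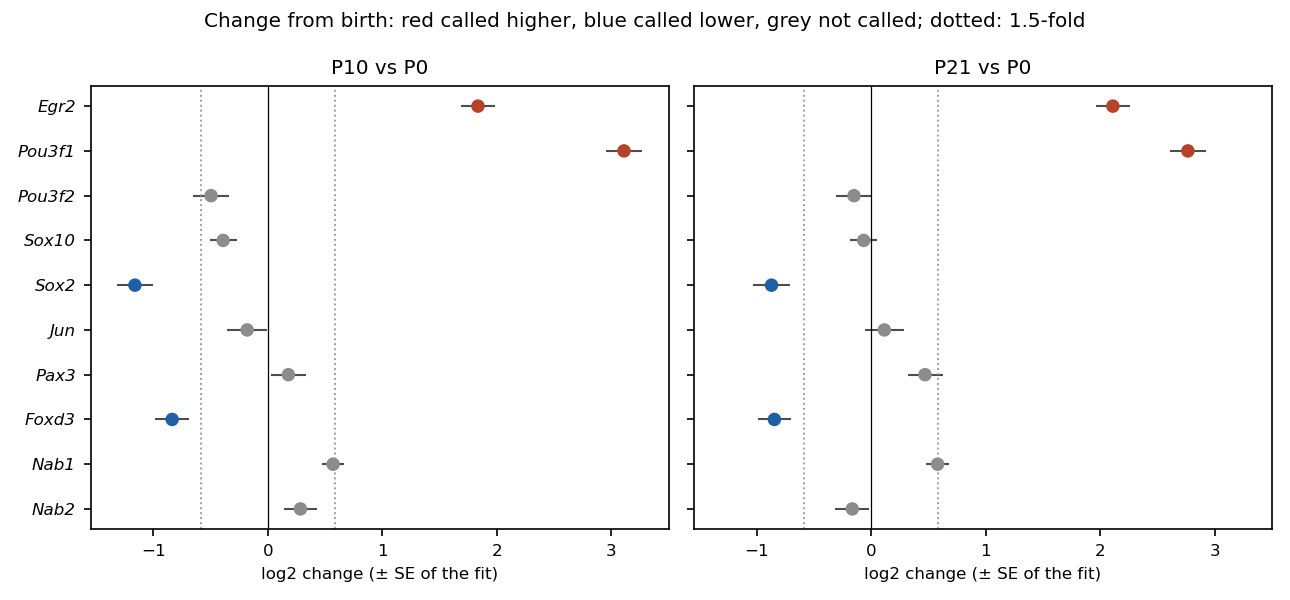
Log2 change from P0 to P10 (left) and to P21 (right) of the 10 genes, as the fitted difference with its SE, where dotted lines mark the fold limit of 1.5. Egr2 and Pou3f1 stand to the right at both ages, Sox2 and Foxd3 to the left, and Nab1 at 0.57 and 0.58 touches the limit.

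From P3 to P7, 3 of the 10 genes rose (Egr2, Pou3f1 and Nab1), beside 6% of all probe sets, and 1 fell (Sox2), beside 3.98%. None of the 10 was called from P7 to P10, where 0.231% of all probe sets were, from P14 to P21, where 2.45% were, or from P10 to P14, where the fit called 0 probe sets of any gene. At an unadjusted p under 0.05 by the limma fit, 3 of the 10 genes passed from P7 to P10, 0 from P14 to P21 and 0 from P10 to P14. The share of all probe sets under that unadjusted limit was not taken, so these counts have no background and cannot be set beside the shares of called probe sets. Without P7 replicate 1 the fit called 1 gene, Sox2, from P7 to P10.

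Of the 10 genes, 7 have more than 1 probe set on the array, and the 10 have 21 in all. From P0 to P10 the fitted changes of the probe sets of a gene lay furthest apart for Pou3f1, and none of a gene was called in the opposite direction to another.

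**Figure D3:**
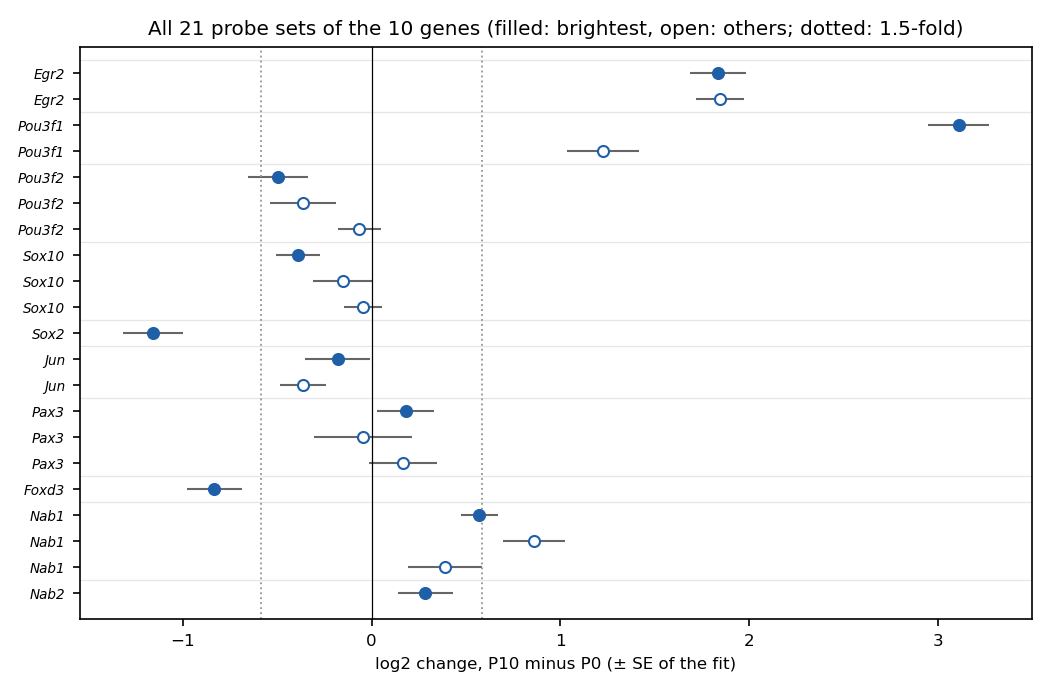
Log2 change from P0 to P10 for each of the 21 probe sets of the 10 genes, as the fitted difference with its SE. Filled points are the brightest probe set of a gene and open points the others; both Egr2 probe sets stand near 1.84, while those of Pou3f1 stand at 3.11 and 1.23.

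Most of the genes listed as targets of Egr2 and Sox10 in myelinating Schwann cells rose over the same days. Of 20 listed, 16 were measured, and 9 were higher and 0 lower at P3 than at P0, 13 and 0 at P10, and 14 and 0 at P21. Of all probe sets, 0.981% were higher at P3, 9.24% at P10 and 12.4% at P21. From P3 to P7, 14 rose and 0 fell, beside 6% and 3.98% of all probe sets. The median change from P0 to P10 was 2.35, beside -0.01 for all probe sets. Mag, an adhesion protein of the sheath, read 6.42 and 6.12 at P0, 7.68 and 7.53 at P3, and 10.50 and 10.11 at P7. Fa2h, which makes the hydroxylated lipids of myelin, went from 6.67 and 6.52 at P0 to 10.91 and 10.71 at P10 (18.6-fold, adjusted p = 2.25e-07, limma). Ncmap, a Schwann cell myelin protein, went from 8.74 and 9.03 to 12.72 and 12.62 (13.8-fold). Pmp2, a fatty acid binding protein of peripheral myelin, peaked at P7 with 10.50 and 10.21 and was down to 7.19 and 6.08 at P21, from 4.09 and 4.71 at P0. The summed level of the list rose from 14.7 and 14.4 at P0 to 16.6 and 16.5 at P7 and lay between 16.6 and 16.8 from P10 on.

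Markers of oligodendrocytes, which myelinate the central end of the nerve, rose as well. Of 10 oligodendrocyte markers measured, 0 were called at P3, 7 were higher at P10 and 9 at P21. Of all probe sets, 9.24% were higher at P10 and 12.4% at P21. The summed level of these markers went from 11.7 and 11.5 at P0 to 12.8 and 12.2 at P7 and to 14.1 and 13.9 at P21. Mobp, a myelin protein of the brain, read 12.1 on average at P10 and 4.07 at P0. Oligodendrocytes also carry Sox10 and make myelin. The part of central glia in the Sox10 values and in the rise of the myelin genes was not tested. Of the Schwann cell markers, 6 of 9 were measured and 4 were higher and 0 lower at P10, beside 9.24% and 10.1% of all probe sets. Mbp and Pmp22, among the 4, are also in the list of myelin targets. Ngfr read 9.20 and 8.98 at P0 and 8.53 and 8.71 at P10, and was not called. Cdh19 read 9.42 and 8.92 at P0 and 9.78 and 9.57 at P10, and was not called either. S100b rose 5.66-fold (adjusted p = 4.36e-06, limma) and Pmp22, a compact myelin protein of the nerve, 4-fold. Of 11 spiral ganglion neuron markers 4 were higher and 2 lower at P10, beside 9.24% and 10.1% of all probe sets. Thy1 was 33.7-fold and Snap25, a synaptic fusion protein, 4.77-fold higher. Prph, an intermediate filament protein, was 4-fold lower (adjusted p = 2.19e-05, limma).

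Among 30 measured genes for other transcription factors and chromatin enzymes of the lineage, 3 were higher and 11 lower at P10 than at P0, with a median change of -0.48, and 0 were higher and 15 lower at P21. Of all probe sets, 9.24% were higher and 10.1% lower at P10, and 12.4% and 14.9% at P21. Hes5, an effector of Notch, had the largest fall, from 9.61 and 9.20 at P0 to 6.49 and 6.47 at P10 (7.59-fold lower, adjusted p = 8.4e-06, limma). Nfatc4, the calcineurin-dependent partner of Sox10, was 3.56-fold lower. Sox9, a crest and precursor factor related to Sox10, was 2.47-fold lower, and Sox5, a SoxD factor, 2.94-fold lower. The 3 that rose, a count near the background, were Egr1, Egr3 and Id4. At P3 there were 0 higher and 2 lower, beside 0.981% and 2.8% of all probe sets. From P3 to P7 2 rose and 4 fell, beside 6% and 3.98%.

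Of 19 measured genes for signals that act on these factors, 1 was higher and 3 were lower at P10, where 9.24% of all probe sets were higher and 10.1% lower, so that these counts are near the background. Their median change from P0 to P10 was 0.06. At P21, 1 of the 19 was higher and 7 were lower, where 12.4% of all probe sets were higher and 14.9% lower. The count lower at P21 was thus above the background. Adgrg6, the adhesion receptor that raises cAMP ahead of Pou3f1, was 3.99-fold lower at P10 than at P0 (adjusted p = 7.76e-05, limma). Its values were 11.20 and 11.23 at P0, 10.94 and 11.17 at P3, 9.76 and 10.31 at P7, and 9.23 and 9.21 at P10. What part Adgrg6 had in the Pou3f1 values was not tested. Notch1 was 2.99-fold lower (adjusted p = 9.07e-06) and Erbb2, a neuregulin receptor, 2.00-fold lower. Dhh, the hedgehog ligand of Schwann cells, was the 1 that rose, 1.91-fold (adjusted p = 0.00244).

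Genes of immature and of repair Schwann cells went both ways, with 4 of 16 higher and 5 lower at P10, and 4 higher and 4 lower at P21. The shares of all probe sets were 9.24% higher and 10.1% lower at P10, and 12.4% and 14.9% at P21. Gap43, a growth protein of immature Schwann cells and growing axons, was 8.94-fold lower at P10, and Ednrb, the endothelin receptor of glial precursors, 4.13-fold lower. Olig1 and Shh, 2 genes that Jun switches on in injured nerve, were higher at P10: Shh read 7.69 and 7.30 at P0 and 9.39 and 9.59 at P10 (3.99-fold, adjusted p = 9.74e-05, limma). Olig1 read 5.98 and 3.99 at P0 and 9.98 and 9.76 at P10, and it is also an oligodendrocyte marker.

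Genes of the Egr and Jun families can also be induced quickly by stress, and the immediate early genes were therefore counted beside them. Of 17 measured, 0 were called at P3, 9 were higher and 0 lower at P10, and 5 were higher and 3 lower at P21. Over all probe sets, 9.24% were higher and 10.1% lower at P10, and 12.4% and 14.9% at P21. At P10 Fos was 3.25-fold, Junb 2.28-fold, Egr1 2.20-fold and Dusp1 2.05-fold higher than at P0, all 4 of them early response genes. The summed level of the list was 13.48 and 13.41 at P0, 13.34 and 13.92 at P3, 13.81 and 13.93 at P7, 14.14 and 13.98 at P10, 13.77 and 13.45 at P14, and 13.30 and 13.28 at P21. At P21, where Egr2 was highest, that sum was the lowest of the 6 ages, and both of its mice lay below both P0 mice. Within an age, the mouse with the higher sum also had the higher Egr2 at 5 of 6 ages, all but P21, and the higher Jun at 3 of 6. Over the 10 genes this count ran from 1 (Pou3f1 and Nab2) to 5 (Egr2 and Sox10). The part of such induction in the Egr2 and Jun values was not tested.

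**Figure D4:**
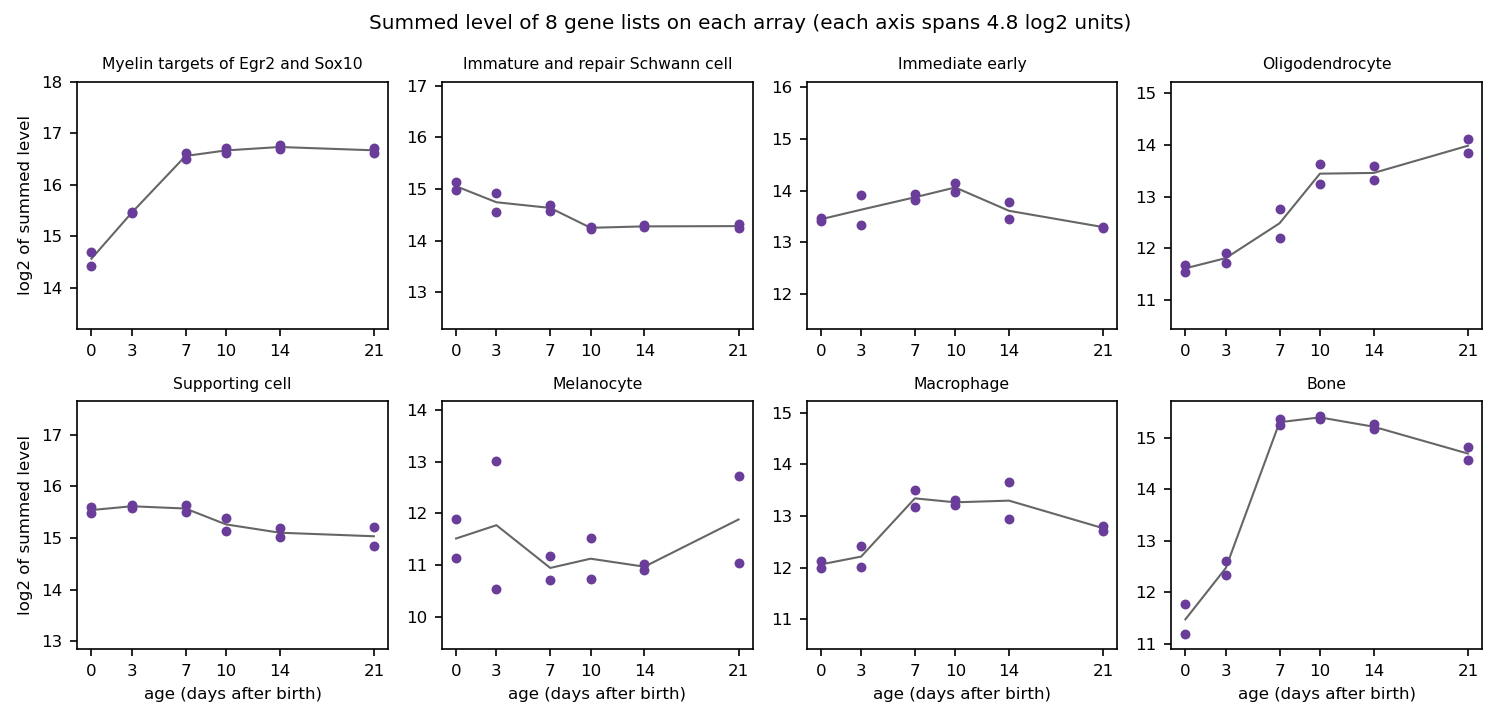
Summed level of 8 gene lists on each array (y axis, log2 of the sum of unlogged values) against age in days (x axis), 1 point per mouse, with a line through the means. Myelin targets climbed up to P7 and levelled off, immediate early genes were highest at P10, and the melanocyte points of P3 and P21 lie far apart.

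Other cells of the sample changed in the same period. From P0 to P10, 8 of 8 macrophage markers, 5 of 6 bone markers and 3 of 8 astrocyte markers were higher and none lower. The shares of all probe sets were 9.24% higher and 10.1% lower. Of 9 cell division genes 0 were higher and 6 lower at P10, and 9 of 9 were lower at P21, where 14.9% of all probe sets were. Of 8 skeletal muscle genes 0 were higher and 3 lower at P10, and of the 10 melanocyte genes Mitf was higher and Oca2 lower. The cell division sum was uneven within 2 ages, at 11.63 and 12.75 at P3 and at 13.12 and 11.26 at P14. What part these changes of cell content had in the values of the 10 genes was not tested.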

How the data were processed

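Auditory nerve RNA was hybridized to Affymetrix mouse 3′ expression arrays, 1 per mouse. The authors processed the scans in Expression Console by RMA and by MAS5 (version not given in the sources used here), and the deposited values, log2 RMA values per probe set, were used unchanged. Array medians were 6.71 to 6.79, and 0 columns belonged to other samples. Leaving 64 controls aside, 45037 probe sets were tested, of which 34945 have 1 symbol in the platform annotation, 932 several and 9160 none. Arrays have no read depth, so 2 mice per age limit the precision. Arrays of an age correlated at 0.991 to 0.996, and 1.36% to 6.31% of probe sets lay over 1.5-fold apart. The labels gave no batch or scan date.

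The 12 arrays in 6 age groups were fitted with limma 3.58.1 (lmFit and eBayes) in R 4.3.3, with 6 residual and 4.03 prior degrees of freedom and Benjamini-Hochberg adjustment over all probe sets tested. The fit was tested on simulated data. P3 to P21 were compared with P0 and, from P7 on, each age with the one before. The 10 genes and the 15 gene lists were chosen with earlier results of these data known. Beside the 10 genes, the text names up to 4 called genes of each list with the largest change from P0 to P10 and, for each of the 10, the 3 genes of most similar profile. Egr3, Id4, Dct, Cdh19 and Ngfr were named after their values were seen. Summed levels are log2 of summed unlogged values. Alternatives were other probe sets, arrays shifted to one median, an intensity trend, array weights, 2 ages alone, a filter on dim probe sets, a replicate block, leaving out each array and the methods' t-test.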

Additional observations from a re-analysis of the deposited data

How the results depend on the processing

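Over the alternatives, no called change or difference turned its direction, and values called under neither setting were given no direction. Among counts of called genes and differences of change, 370 values under alternatives stayed on their side of the threshold or, for counts, within 1.5 times, 15 counts moved further and 2 differences lost their call. The count from P7 to P10 was 1 (Sox2) with an intensity trend and with array weights, against 0. The count from P0 to P3 was 1 with the 2 ages fitted alone, and 1 of 7 genes on the next brightest probe set, against 2. On the third brightest probe set, which 4 genes have, the count from P3 to P7 and that over the 6 ages were 0, against 1. By the methods' t-test, unadjusted, 2 genes passed from P3 to P7 (Pou3f1 and Nab1). After Benjamini-Hochberg that test called 0 of the 10 genes from P3 to P7 and at P3, P7, P10, P14 and P21 against P0, where it called 2, 2, 4, 97, 52 and 24 of all probe sets. Nab1 minus Nab2 from P0 to P21 was 0.493 on the mean of all probe sets, under the fold limit.

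Leaving out each array in turn gave 2 to 3 genes for P3 against P0, 2 to 4 for P7, 4 to 5 for P10 and for P14, 4 to 6 for P21, 3 to 4 from P3 to P7, 0 to 1 from P7 to P10, and 5 to 7 over the 6 ages. For P7 against P0 the 4 were reached without P7 replicate 2 (Egr2, Pou3f1, Sox2 and Nab1), and from P7 to P10 the 1 was Sox2 without P7 replicate 1. Nab1 minus Nab2 ranged from 0.055 to 0.515 at P10 and from 0.515 to 0.975 at P21.

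The labels give each age a replicate 1 and 2 but nothing ties the numbers across ages. Deviations of same-numbered mice from their age means correlated between -0.125 and 0.317 over 15 pairs of ages, above 0.1 in 6. With the replicate block the counts were those of the fit without it, such as 6 genes over the 6 ages and 4 from P0 to P10.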

Other observations

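For each of the 10 regulators the genes with the most similar profile over the 12 arrays were listed, by Pearson's r across arrays that share the ages and the dissection. Closest to Pou3f1 were Cldn19, a tight junction protein of Schwann cell myelin (r = 0.984), Gpr137b-ps (0.982) and Mpp6 (0.977). Closest to Egr2 were Emp2 (0.975), the astrocyte water channel Aqp4 (0.972) and Fnta (0.972), and closest to Sox2 were Rcbtb2 (0.982), Mttp (0.979) and Ift27 (0.978). Foxd3 was followed by Gfra2, a receptor for a neurotrophic factor (0.966), Ppp1r26 (0.962) and the adhesion molecule Ncam1 (0.960), which all fell from P0 to P10. Nab1 was followed by Stat5a (0.984), Casq1 (0.983) and Rnd1 (0.982). For Nab2 they were Gtf2h1 (0.928), Id3 (0.911) and Nrp2 (0.896), and for Sox10 they were Ssh1 (0.957), Spen (0.937) and Anks1 (0.925). For Jun they were L1cam (0.928), Lars2 (0.926) and Parvb (0.918), for Pax3 Ndufaf8 (0.958), Pigp (0.947) and Dnase2a (0.946), and for Pou3f2 Zfp398 (0.864), Slc4a1ap (0.864) and Nrxn2 (0.848).

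For each of the 45 pairs of the 10 genes, the ages at which the same mouse was the higher for both were counted. The count was 5 of 6 for 5 pairs (Sox2 with Foxd3, Nab1 with Nab2, Egr2 with Pou3f2, Pou3f1 with Pax3 and Pou3f2 with Foxd3) and never 6, and no test was made. With 2 mice per age, some of 45 pairs can reach such a count by chance, so no link between genes is read from it. For Egr2 and Pou3f1, the pair that rose together from P0, it held at 2 of 6 ages, and for Egr2 and Nab1 at 1 of 6. The gap between mice was widest for Pax3 at P21 (0.49) and for Nab2 at P0 (0.47).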
